A study of Mus musculus with 2 samples.

Results

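The proneural and neuronal differentiation cascade was followed as 9 genes, Neurog1, Neurog2, Eomes, Insm1, Neurod1, Neurod4, Neurod2, Neurod6 and Bhlhe22, chosen by name out of 27998 genes listed in the files. Their unique molecular identifiers (UMIs, 1 for each captured RNA molecule) were counted in 2 single-cell RNA libraries of telencephalic tissue from C57BL/6 mice at postnatal day 0. The WT library is labelled wild type. The cKO library is labelled STINGf/f;Nestin-Cre, which carries a loxP-flanked STING gene and a Cre recombinase that the Nestin promoter drives in the neural lineage, so cells outside that lineage keep the gene. There was 1 library per genotype and the number of animals pooled in each is not given in the sources used here. No difference below therefore has a replicate check, no test was run, and all intervals are 95% intervals that cover counting error only.

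In the developing cortex, radial glia divide at the ventricle and give rise to intermediate progenitors and neurons. The basic helix-loop-helix factor Neurog2 starts the neuronal programme in dorsal radial glia, and Eomes (Tbr2) marks the intermediate progenitors that follow. Neurod1 and then Neurod2, Neurod6 and Bhlhe22 come on as cells leave the cycle and become glutamatergic neurons, while Insm1, a zinc finger factor, acts in newly formed progenitors of several lineages.

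Cells were placed along this course by marker UMIs, with no clustering. Radial glia had at least 4 of 8 radial glia genes and no Aqp4 or Aldh1l1 UMI. Cycling cells had at least 3 of 10 mitotic genes and were split at 2 Eomes UMIs, Eomes-positive cells did not cycle and had at least 2 Eomes UMIs, and neurons had at least 4 of 8 neuronal genes and a glutamatergic marker. Neurons with at least 2 of Unc5d, Sema3c, Sstr2, Rnd2 and Cntn2 were called newborn and the others later. In WT and cKO these 6 stages held 91 and 120 radial glia, 167 and 124 cycling Eomes-low cells, 35 and 27 cycling Eomes-positive cells, 139 and 146 Eomes-positive cells, 1290 and 1297 newborn neurons, and 1122 and 1205 later neurons. Because Eomes set the Eomes stages, its level there is no result. Before any stage was set, cells with at least 3 genes of an endothelial, microglial, mural, fibroblast, granulocyte, oligodendrocyte precursor or ependymal list were set aside. Cells with several Dlx or Gad genes and Cajal-Retzius cells (early-born neurons of the marginal zone) were set aside next. The cycling Eomes-low stage was not restricted to cortical progenitors beyond these exclusions.

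Genes that did not set the stages were also read along them. Vim, an intermediate filament of radial glia, was at 1178 CPM (UMIs of the gene scaled to the same total in each stage and library) in WT radial glia and 1838 CPM in cKO radial glia, against 15.6 and 10.0 CPM in later neurons. Dcx, a microtubule protein of migrating neurons, was at 97.3 and 35.8 CPM in radial glia and at 602 and 446 CPM in Eomes-positive cells. In newborn neurons it was at 535 and 612 CPM and in later neurons at 463 and 546 CPM, so in WT it was highest in Eomes-positive cells. The summed oligodendrocyte precursor genes were at 835 and 635 CPM in radial glia, with 2 and 3 of 5 genes detected. Here and below, these sums are what remained after cells with at least 3 of the 5 genes had been set aside. The neuronal gene Stmn2, one of those that set the neuron stages, was at 569 CPM in WT and 105 CPM in cKO radial glia. Which cells gave these UMIs was not tested.

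The libraries held 10715 and 9198 barcodes, of which 6428 and 5776 were kept as cells, with medians of 6483 and 7458 UMIs. They shared 19 barcodes. Tmem173, the gene of STING, had 110 UMIs in kept WT cells and 15 in kept cKO cells, but only 9 and 1 of these lay in the 6 stages, and the sequenced end of the RNA need not lie in the deleted part, so the deletion could not be checked within the cascade itself. Xist UMIs numbered 10 in WT and 67618 in cKO, and those of Y-linked genes 9296 and 6. Genotype, library and sex-linked expression therefore cannot be told apart.

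**Figure D1:**
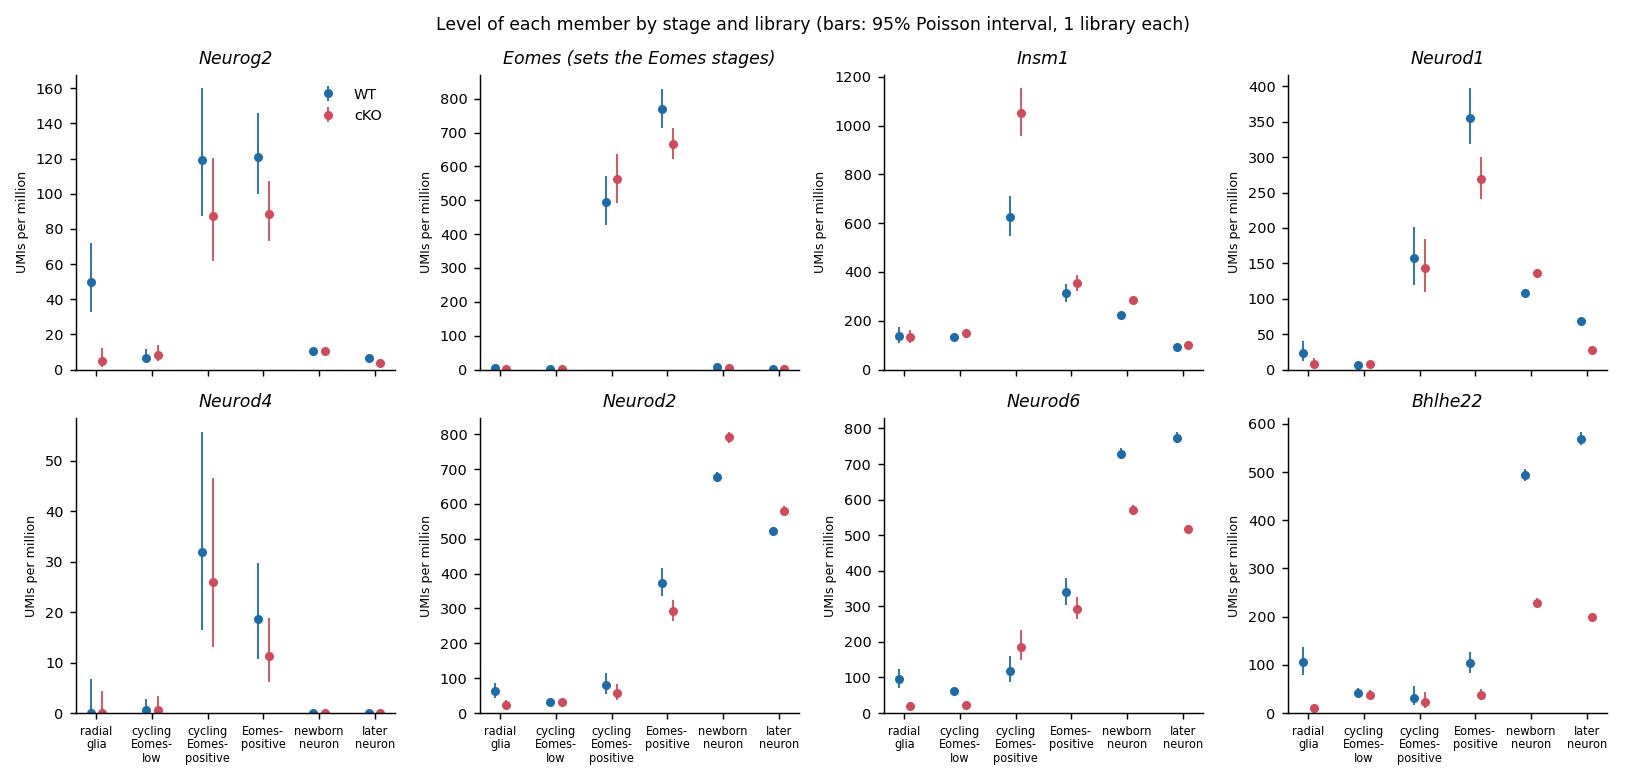
Level of 8 genes of the cascade (y axis, CPM) in 6 stages (x axis), WT in blue and cKO in red, with bars for the exact 95% Poisson interval. Neurog2 and Neurod1 were highest in the Eomes-positive stages and Neurod2, Neurod6 and Bhlhe22 in neurons, and Bhlhe22 in later neurons was at 569 CPM in WT and 199 CPM in cKO.

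The neurogenins open the cascade. Neurog1 (chromosome 13, 56250478 to 56252163, minus strand, a single exon, GENCODE M21 on GRCm38) was close to absent, with 1 UMI in all kept WT cells and 2 in all kept cKO cells. Neurog2 (chromosome 3, 127633135 to 127635631, plus strand, 2 exons) had its highest level in the Eomes stages. Newborn neurons, a larger stage, held 121 of its UMIs in WT and 134 in cKO, against 111 and 110 in Eomes-positive cells. In WT Neurog2 stood at 119 CPM (87.1 to 159.9) in cycling Eomes-positive cells and 121 CPM (99.7 to 146) in Eomes-positive cells. In cKO it stood at 87.4 CPM (61.5 to 120.4) and 88.7 CPM (72.9 to 107) in the same stages. The cycling and non-cycling Eomes-positive cells could not be ordered in either library, since the interval of their log2 ratio ran from -0.49 to 0.55 in WT and from -0.53 to 0.60 in cKO. From Eomes-positive cells to newborn neurons the level was 11.6-fold lower in WT and 8.62-fold lower in cKO, at 10.4 and 10.3 CPM. Later neurons had 6.40 and 3.58 CPM.

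Neurog2 was sparse even where it was highest. After each cell was thinned to 2000 UMIs, 20.3% of WT Eomes-positive cells (13.9 to 28.0%) and 12.3% of cKO cells (7.47 to 18.8%) had a Neurog2 UMI, and without thinning the shares were 33.1% and 33.6%. Among vascular and immune cells, where the gene should be silent, 0 and 1.75% of thinned cells had one. In newborn neurons the thinned share was 3.69% and 2.33%, the latter near this background.

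In radial glia the 2 libraries differed. Neurog2 had 27 UMIs in 14 of 91 WT cells (49.6 CPM) and 4 UMIs in 4 of 120 cKO cells (4.77 CPM), which was 15.4% and 3.33% of the cells. After thinning, 9.21% of WT cells and 0 of 111 cKO cells had a UMI. A count of 0 allows up to 2.70% of cells with a UMI at 2000 UMIs per cell by the limit of 3 counts, and up to 3.27% by the Clopper-Pearson interval, and it sets no limit on cells that express the gene. A single WT cell carried 8 of the 27 UMIs.

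Eomes, a T-box factor, lies at chromosome 9, 118478212 to 118486132, plus strand, with the antisense gene Gm33460 over part of it. Outside the stages it defined, it was at 7.57 CPM (6.07 to 9.32) in WT newborn neurons and 4.07 CPM (3.05 to 5.32) in cKO newborn neurons, in cells with 1 UMI each since 2 would have moved them. Radial glia held 2 Eomes UMIs in either library and later neurons 5.

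Insm1 (chromosome 2, 146221921 to 146225020, plus strand, a single exon) was highest where Eomes-positive cells cycled. It was at 627 CPM (549 to 712) in WT and 1053 CPM (958 to 1156) in cKO in cycling Eomes-positive cells, against 134 and 148 CPM in cycling Eomes-low cells. From there it was lower at each step, with 313 and 355 CPM in Eomes-positive cells, 223 and 285 CPM in newborn neurons and 94.0 and 98.9 CPM in later neurons. Radial glia, at 138 and 134 CPM, could not be told from cycling Eomes-low cells. The higher cKO level in cycling Eomes-positive cells rested on 27 cells with a mean of 17.8 UMIs per positive cell, against 7.15 in WT, and the shares of thinned cells with a UMI were 77.8% (57.7 to 91.4%) and 61.8% (43.6 to 77.8%). Doublet removal had taken 4 of 31 cKO and 3 of 38 WT cells of this stage, and without it the log2 ratio of cKO to WT was 0.74. The summed oligodendrocyte precursor genes of the stage were at 196 CPM in WT and 7.09 CPM in cKO, and their part in the difference was not tested.

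Insm1 was also found outside the dorsal lineage. In GABAergic lineage cells, which carried at least 3 of 6 Dlx and Gad genes, it was at 259.5 CPM in WT and 248 CPM in cKO. The thinned shares there were 24.3% and 21.7%, against 0.873% and 2.63% of vascular and immune cells.

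Neurod1 (chromosome 2, 79452521 to 79456751, minus strand, 2 exons) is a neurogenin target that promotes exit from the progenitor state. Its annotation overlaps Cerkl on the same strand and Gm26755 on the other, so some of its reads are uncertain. It was highest in Eomes-positive cells, at 356 CPM (318 to 397) in WT and 269 CPM (241 to 299.7) in cKO, followed by cycling Eomes-positive cells at 157 and 144 CPM and newborn neurons at 108 and 136 CPM. In cycling Eomes-low cells it was at 6.69 and 7.16 CPM, 23.4-fold and 20.1-fold below their Eomes-positive counterparts. The libraries parted in later neurons, with 68.4 CPM (63.7 to 73.3) in WT and 28.1 CPM (25.4 to 31.0) in cKO. Relative to newborn neurons that was 1.58-fold lower in WT and 4.83-fold lower in cKO.

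Neurod4 (chromosome 10, 130268152 to 130280240, minus strand, 2 exons), a related factor, was the rarest member after Neurog1. Of its UMIs in kept cells, 30.0% in WT and 40.7% in cKO came from cycling Eomes-positive cells and 42.5% and 51.9% from Eomes-positive cells. These were 12 and 11 UMIs in the cycling cells (31.9 and 26.0 CPM) and 17 and 14 UMIs in the others (18.6 and 11.3 CPM). Newborn neurons held 1 UMI in WT and 0 in cKO, and 0 of 1288 thinned cKO newborn neurons had a UMI. This allows up to 0.233% of cells with a UMI at that depth by the limit of 3 counts, and up to 0.286% by the Clopper-Pearson interval. For so rare a transcript it sets no limit on cells that express it.

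**Figure D2:**
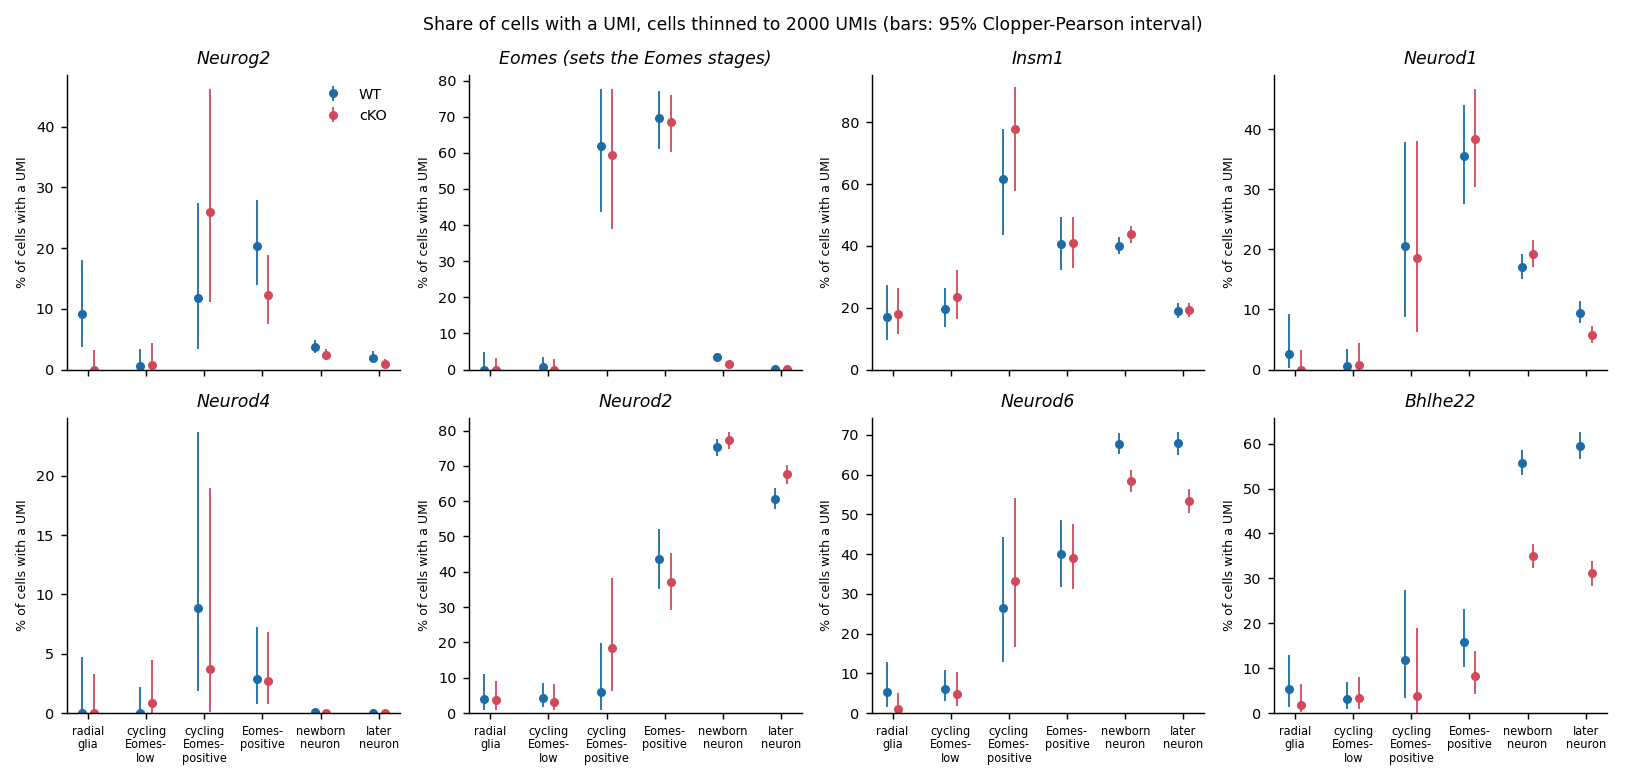
Share of cells with at least 1 UMI of each gene (y axis, percent) by stage (x axis) after each cell was thinned to 2000 UMIs, WT in blue and cKO in red, with Clopper-Pearson 95% intervals. Bhlhe22 was found in 59.6% of WT and 31.1% of cKO later neurons, while Neurod2 was found in 60.7% and 67.6%.

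Neurod2 (chromosome 11, 98325415 to 98329648, minus strand) and Neurod6 (chromosome 6, 55677822 to 55681263, minus strand) are neuronal bHLH factors that act in the maturation of cortical glutamatergic neurons. They were the most alike pair of members over 12 cell classes in each library (Pearson's r of log2(CPM + 10) 0.969, 24 points that share 2 libraries and the gates). The 250 bases before each RefSeq gene start are shown because these genes came on together, with those of Neurog2 and Eomes, which peak earlier, for comparison. Sequences are from RefSeq on GRCm38.p6, on the strand of the gene, at chr11:98329646-98329895, chr6:55681264-55681513, chr3:127632886-127633135 and chr9:118477939-118478188. RefSeq starts differ by some bases from the GENCODE positions given here, so the Eomes window ends short of the GENCODE gene and the Neurod2 window reaches a few bases into it. E-boxes (CANNTG, the motif that bHLH factors bind, which reads the same on both strands) are in capitals.
Neurod2: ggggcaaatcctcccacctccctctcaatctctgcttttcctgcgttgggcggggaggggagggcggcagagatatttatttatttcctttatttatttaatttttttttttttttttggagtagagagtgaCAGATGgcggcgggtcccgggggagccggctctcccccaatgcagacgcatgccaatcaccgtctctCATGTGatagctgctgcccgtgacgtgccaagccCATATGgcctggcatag
Neurod6: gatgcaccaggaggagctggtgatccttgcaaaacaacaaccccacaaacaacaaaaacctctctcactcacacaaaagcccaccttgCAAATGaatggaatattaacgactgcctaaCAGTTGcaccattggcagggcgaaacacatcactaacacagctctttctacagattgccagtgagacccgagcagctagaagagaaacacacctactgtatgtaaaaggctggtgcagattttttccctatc
Neurog2: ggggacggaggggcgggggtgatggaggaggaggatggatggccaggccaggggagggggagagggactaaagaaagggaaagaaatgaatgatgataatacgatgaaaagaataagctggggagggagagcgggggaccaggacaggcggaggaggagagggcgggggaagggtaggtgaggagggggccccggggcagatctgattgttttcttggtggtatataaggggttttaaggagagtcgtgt
Eomes: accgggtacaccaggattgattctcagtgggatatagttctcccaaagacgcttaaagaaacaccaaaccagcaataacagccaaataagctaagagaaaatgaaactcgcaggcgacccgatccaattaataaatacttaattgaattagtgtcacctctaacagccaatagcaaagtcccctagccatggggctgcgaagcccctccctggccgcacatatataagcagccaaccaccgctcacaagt
Neurod2 held 3 E-boxes, among them CAGATG, and Neurod6 held 2, while the Neurog2 and Eomes windows held none. Of the members not shown, Neurod1, which peaked in Eomes-positive cells, held 1 in a window that runs into its GENCODE gene, and Neurog1 and Neurod4 held none. An E-box stood in 66.2% of 32851 promoter windows of this length, and CAGATG or its reverse complement CATCTG in 14.4%. A match is a description of the letters and not a site.

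Neurod2 was at 373 CPM in WT Eomes-positive cells and 293 CPM in cKO Eomes-positive cells, and highest in newborn neurons at 677 CPM (662 to 692) and 791 CPM (776 to 807). Later neurons had 521 and 581 CPM. In newborn neurons 75.3% and 77.3% of thinned cells had a Neurod2 UMI, far above the 5.24% and 3.51% of vascular and immune cells.

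Neurod6 was at 339.6 CPM in WT and 293 CPM in cKO Eomes-positive cells. In newborn neurons it stood at 728 CPM (713 to 744) in WT and 571 CPM (558 to 584) in cKO, and in later neurons at 774 and 518 CPM. Its highest stage was therefore later neurons in WT and newborn neurons in cKO, although the steps between them were small, with log2 ratios of later over newborn neurons of 0.09 and -0.14. Of thinned newborn neurons 67.8% and 58.4% had a UMI, against 4.37% and 6.14% of vascular and immune cells.

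Bhlhe22 (chromosome 3, 18054174 to 18057517, plus strand, a single exon), a repressor of the same bHLH class with roles in cortical area identity and axon targeting, came on last. It was at 103 CPM in WT Eomes-positive cells, and 4.82-fold higher in newborn neurons. WT newborn neurons had 494 CPM (482 to 507) and later neurons 569 CPM (556 to 583). In cKO the same stages had 37.9, 229 (221 to 238) and 199 CPM (192 to 206). The lower cKO level went with fewer positive cells and with fewer UMIs in each positive cell. After thinning, 55.7% of WT and 35.0% of cKO newborn neurons had a UMI, and 59.6% and 31.1% of later neurons. Before thinning the shares were 82.6% and 71.9% of newborn neurons and 83.7% and 69.0% of later neurons. Positive cells then held means of 5.39 and 3.20 UMIs in newborn neurons and 7.01 and 3.34 in later neurons. A lower level per cell also lowers the thinned share. Vascular and immune cells had a Bhlhe22 UMI in 4.80% and 0.877% of thinned cells.

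Between the libraries, genes were called past 2-fold where the CPM ratio with 0.5 UMIs added reached 2 and both libraries together held at least 20 UMIs. In later neurons Neurod1 and Bhlhe22 were past 2-fold lower in cKO, 2 of 6 members tested and none higher, while 17.5% of 12360 genes were lower and 5.18% higher by that much. Bhlhe22 had a log2 ratio of -1.52 (-1.58 to -1.45) and Neurod1 of -1.28 (-1.46 to -1.11), against a median of -0.16 over all genes. The Neurod1 ratio was short of 2-fold with stages set after thinning (-0.48) and by the mean of the CPM of each cell (-0.62). In cells with at most 5% mitochondrial UMIs and at least 1000 genes it was 0.34, with the sign turned. Neurod6 was lower by less (-0.58, from -0.63 to -0.54), and Neurod2 (0.16, from 0.11 to 0.21) and Insm1 (0.07, from -0.04 to 0.19) were not lower over all later neurons, although both were lower in the middle bin of mitochondrial share given below. Neurog2, with 74 and 50 UMIs, had a log2 ratio of -0.84 (-1.38 to -0.30).

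Eomes is left out of the counts for the 6 stages, since it set or capped them. In newborn neurons 1 of 6 members tested was past 2-fold lower, Bhlhe22 at -1.11 (-1.17 to -1.04), where the background over all genes was 17.9% lower and 4.67% higher. Insm1 (0.36, from 0.28 to 0.43), Neurod1 (0.33, from 0.23 to 0.44) and Neurod2 (0.22, from 0.18 to 0.27) were higher in cKO, and Neurod6 was lower (-0.35, from -0.40 to -0.31), except in cells with at most 5% mitochondrial UMIs, where it was higher (0.18, from 0.03 to 0.32). Neurog2 was at -0.02 (-0.38 to 0.35). The median over all genes was -0.19.

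In Eomes-positive cells 1 of 7 members was past 2-fold lower, Bhlhe22 at -1.44 (-1.98 to -0.92), where the background was 12.9% lower and 7.10% higher. Neurog2 (-0.45, from -0.85 to -0.06), Neurod1 (-0.40, from -0.63 to -0.18) and Neurod2 (-0.35, from -0.57 to -0.14) were lower in cKO by less than 2-fold. Insm1 (0.18, from -0.04 to 0.40) and Neurod6 (-0.21, from -0.43 to 0.01) had intervals that held 0. With stages set after thinning to 2000 UMIs, Bhlhe22 was at -0.43 in Eomes-positive cells and at -0.83 in newborn neurons, short of 2-fold. In cycling Eomes-positive cells 0 of 7 members were past 2-fold in either direction, with a background of 9.83% lower and 6.40% higher. Insm1 (0.75, from 0.52 to 0.98) and Neurod6 (0.64, from 0.10 to 1.20) were higher in cKO there.

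In cycling Eomes-low cells 1 of 6 members was past 2-fold lower, Neurod6 at -1.52 (-2.10 to -0.98), with a background of 8.56% lower and 4.82% higher. It had 120 UMIs in WT, 23 of them in 1 cell, and 36 in cKO. Without the cell with the most Neurod6 UMIs in each library the log2 ratio was -1.58 (-2.24 to -0.96). The summed oligodendrocyte precursor genes also differed in this stage, at 1085 CPM in WT and 459.6 CPM in cKO with 4 of 5 genes detected in each, and their part in the difference was not tested. The Neurod6 ratio was past 2-fold under 11 of 12 alternatives, but with stages set after thinning it was 0.09.

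In radial glia 4 of 5 members tested were past 2-fold lower in cKO, where the background was 10.5% lower and 6.09% higher of 7820 genes. The log2 ratio was -3.38 (-5.35 to -1.86) for Neurog2, -1.39 (-2.26 to -0.55) for Neurod2, -2.32 (-3.23 to -1.49) for Neurod6 and -3.46 (-4.73 to -2.38) for Bhlhe22, while Insm1 was at -0.04 (-0.48 to 0.40). These counts were small and came from few cells. Bhlhe22 had 57 UMIs in 11 of 91 WT cells with 31 in a single cell, Neurod6 52 UMIs in 13 cells with 24 in a single cell, and Neurod2 34 UMIs in 12 cells with 11 in a single cell. Without the cell with the most UMIs of the gene in each library, the log2 ratios were -3.28 (-5.68 to -1.52) for Neurog2, -1.75 (-2.94 to -0.66) for Neurod2, -1.89 (-3.00 to -0.87) for Neurod6 and -2.82 (-4.39 to -1.51) for Bhlhe22. With other filters the direction turned for Neurod2, at 0.11 with the automatic doublet threshold, and for Neurod6, at 1.32 with at least 1000 genes and at most 5% mitochondrial UMIs. Among radial glia with up to 5% mitochondrial UMIs (54 WT and 71 cKO cells), Neurod2 had 6 and 8 UMIs (-0.11, from -1.82 to 1.70), Neurod6 5 and 7 (-0.04, from -1.91 to 1.96) and Bhlhe22 5 and 2 (-1.84, from -5.24 to 0.77), while the 29 WT and 36 cKO cells with 5 to 7.5% held 28 and 3, 45 and 8, and 52 and 4 UMIs of the same genes. Neurog2 had 18 and 2 UMIs in the lowest bin (-3.69, from -6.84 to -1.63). Neuronal RNA in this stage also differed, with Stmn2 at 569 and 105 CPM as given above, and its part in the difference was not tested.

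**Figure D3:**
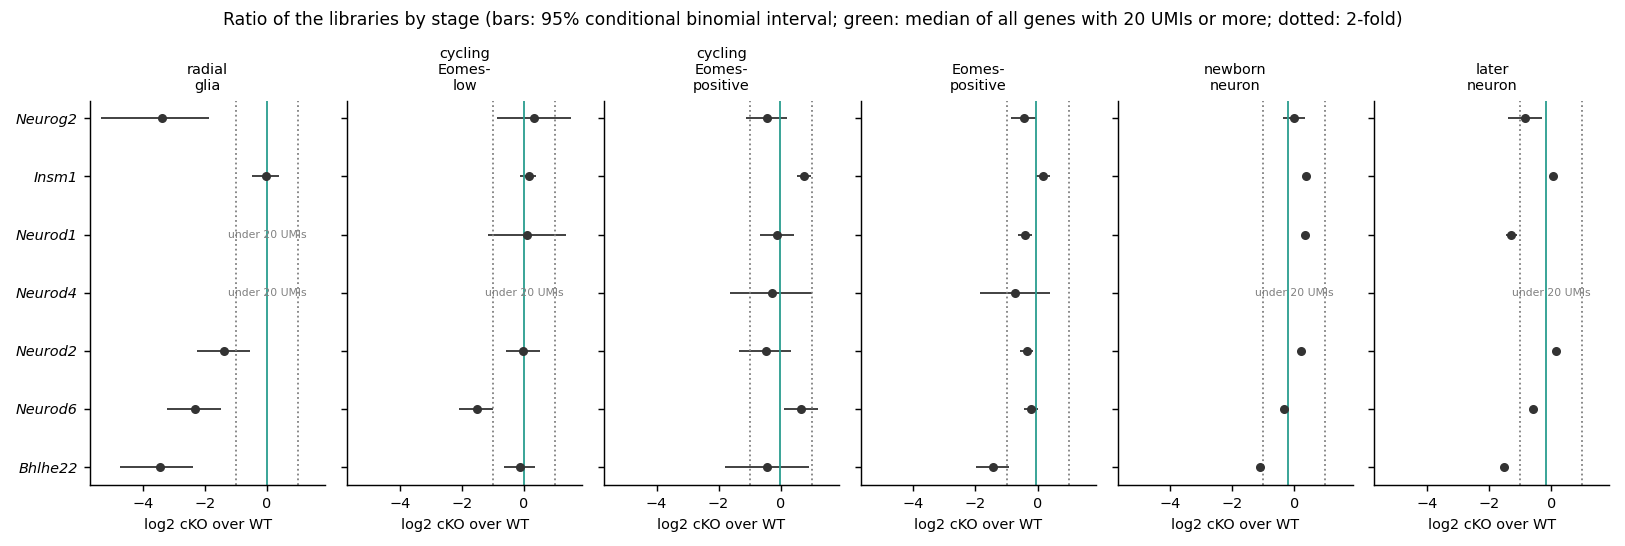
log2 ratio of cKO over WT CPM (x axis) for the members in each stage, with bars for the 95% conditional binomial interval and the median of all tested genes of the stage marked. Bhlhe22 was below the median gene in Eomes-positive cells and in neurons, whereas Insm1 and Neurod2 were above it in newborn and later neurons.

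GABAergic lineage cells gave a reading outside the dorsal course. There 2 of 7 members were past 2-fold lower in cKO, Neurod1 at -1.63 (-2.29 to -1.02) and Bhlhe22 at -1.58 (-1.87 to -1.29), where the background was 15.9% lower and 4.16% higher. Their levels were low, at 10.1 and 3.28 CPM for Neurod1 and 44.1 and 14.8 CPM for Bhlhe22. By the bins of mitochondrial share given below, from the lowest up, Neurod1 was at -2.30, -2.04 and -0.41 (-1.78 to 1.01). Bhlhe22 was at -1.52, -1.57 and -1.60. Bhlhe22 was also lower in astrocyte-type cells, at 25.9 and 5.83 CPM. In vascular and immune cells, used as a background for free RNA, it was at 11.8 and 6.81 CPM, with 6 of the 13 cKO UMIs in 1 cell.

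The cKO neurons had more mitochondrial RNA, with a median share of 7.10% of UMIs in newborn neurons against 6.22% in WT. Of later neurons 50.3% in cKO and 21.8% in WT had a share of 7.5 to 10%. Neurons were therefore also read by mitochondrial share, a division chosen after the values were seen. Among later neurons with up to 5% (83 WT and 163 cKO cells), Bhlhe22 was at 306 CPM in WT and 279 CPM in cKO, a log2 ratio of -0.13 (-0.40 to 0.14). At 5 to 7.5% (794 and 436 cells) it was at 581 and 178 CPM, and at 7.5 to 10% (245 and 606 cells) at 621 and 208 CPM. The difference between the libraries was thus large in the upper bins, and over all later neurons of the lowest bin it was not detectable. Among upper-type cells of that bin, which the layer genes described below set, Bhlhe22 was lower in cKO (-0.67, from -1.05 to -0.29), on 160 and 95 UMIs. Cells of neither layer type made up 33 of the 83 WT and 89 of the 163 cKO cells of the bin, and there the log2 ratio was 0.05 (-0.40 to 0.51). Those lowest-bin cells were also of unequal depth, with medians of 7215 UMIs in WT and 3897 UMIs in cKO.

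Newborn neurons gave a like picture, with Bhlhe22 log2 ratios of -0.39 (-0.59 to -0.18), -1.14 and -1.40 from the lowest to the highest bin. Neurod1 in later neurons was at 82.3 and 108 CPM in the lowest bin (0.39, from -0.09 to 0.87), at 71.4 and 28.0 CPM in the middle bin and at 50.2 and 19.2 CPM in the highest bin. Neurod2 in later neurons was higher in cKO in the lowest bin, at 378 and 896 CPM, lower in the middle bin, at 532 and 485 CPM, and higher in the highest bin, at 529.9 and 630.2 CPM. Neurod6 in later neurons was lower in cKO in each bin, with log2 ratios of -0.40, -0.74 and -0.47. In newborn neurons its log2 ratio was 0.18 in the lowest bin and -0.44 and -0.47 in the others, so the direction turned. Insm1 in later neurons was higher in cKO in the lowest bin, at 67.4 and 271 CPM (2.01, from 1.57 to 2.47), lower in the middle bin, at 96.4 and 73.0 CPM (-0.40, from -0.57 to -0.24), and at 94.2 and 102 CPM in the highest bin (0.12, from -0.11 to 0.36). Its ratio of 0.07 over all later neurons pooled these.

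**Figure D4:**
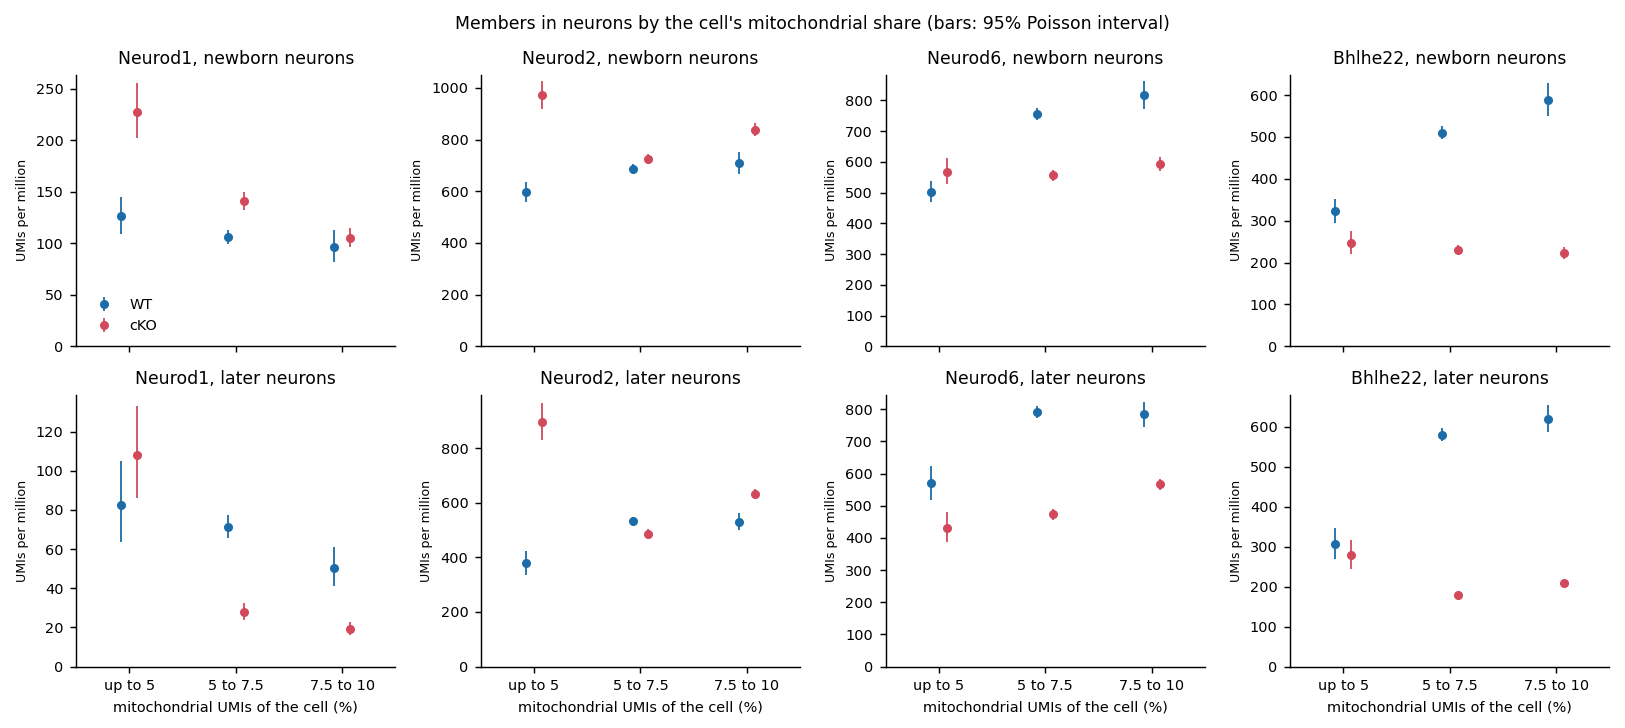
Level of Neurod1, Neurod2, Neurod6 and Bhlhe22 (y axis, CPM) in newborn and later neurons by the mitochondrial share of the cell's UMIs (x axis, percent), WT in blue and cKO in red, with 95% Poisson intervals. Bhlhe22 in later neurons was at 306 and 279 CPM in the bin up to 5% and at 621 and 208 CPM in the bin from 7.5 to 10%.

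Later neurons were divided into upper-type and deep-type by sets of 6 layer genes each. Upper-type cells numbered 780 in WT and 705 in cKO, and deep-type cells 86 and 138. Bhlhe22 was at 649 CPM in WT and 225 CPM in cKO upper-type cells, and at 128 and 86.8 CPM in deep-type cells, so the upper-type level was higher in both libraries. Its log2 ratio (cKO over WT) was -1.53 (-1.61 to -1.45) in upper-type and -0.56 (-0.88 to -0.24) in deep-type cells. The deep-type ratio of Bhlhe22 pooled unlike bins of mitochondrial share. From the lowest bin up it was 0.48 (-0.75 to 1.64, on 18 and 11 UMIs), -0.65 (-1.04 to -0.25) and -1.42 (-2.10 to -0.72). The upper-type ratios were -0.67, -1.70 and -1.52, so in the highest bin the 2 types were close. Neurod1 was lower in cKO in both, at 58.3 and 21.7 CPM in upper-type and 38.8 and 8.95 CPM in deep-type cells. Neurod6 was lower in cKO among upper-type cells, at 823 and 547 CPM, but at 415 and 392 CPM in deep-type cells (-0.08, from -0.25 to 0.08). That deep-type ratio pooled unlike bins of mitochondrial share. From the lowest bin up they were at -0.03 (-0.68 to 0.60), -0.46 (-0.65 to -0.27) and 1.47 (0.82 to 2.21), the last on 20 and 288 UMIs. In upper-type cells Neurod6 was at -0.83, -0.53 and -0.66. Neurod2 was at 559.7 and 671 CPM in upper-type cells and 375 and 385 CPM in deep-type cells. Its deep-type ratios by the same bins were 1.21 (0.71 to 1.70), -0.12 (-0.32 to 0.07) and 0.81 (0.10 to 1.60). The upper-type ratios were 1.12, 0.09 and 0.23.

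Cells were also ordered by their own Eomes UMIs, over cells that neither cycled nor belonged to another lineage, astrocyte-type and unassigned cells included. Neurog2 was at 8.24 CPM in WT cells with 0 Eomes UMIs, 37.7 with 1, 61.2 with 2 to 3, 94.1 with 4 to 7 and 307 with 8 or more. In cKO the values were 5.78, 29.6, 30.4, 88.8 and 162 CPM. Bhlhe22 had the opposite order, from 459 CPM at 0 Eomes UMIs to 27.4 at 8 or more in WT and from 189.5 to 14.7 CPM in cKO. Neurod1 in WT was at 369.6 CPM (314 to 432) with 2 to 3 Eomes UMIs and 383 CPM (317 to 459) with 4 to 7. With 8 or more it was at 279 CPM (208 to 367). In cKO Neurod1 was at 394 CPM (343 to 451) with 1 Eomes UMI, 353 CPM (302 to 411) with 4 to 7 and 144 CPM with 8 or more. Intervals of the highest bins overlapped within each library, so the bin of the peak was not settled in either. Neurod2 was at 71.2 CPM in WT and 165 CPM in cKO at 8 or more, and at 738 and 555 CPM at 1. The bin of 8 or more held 21 WT and 37 cKO cells. Cells were not thinned for these bins and cKO cells were deeper in each, with medians of 5885 and 7742 UMIs at 2 to 3 Eomes UMIs. Eomes itself was at 388 and 294 CPM in that bin and at 1615 and 1193 CPM at 8 or more. A bin therefore held unlike Eomes levels in the 2 libraries.

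**Figure D5:**
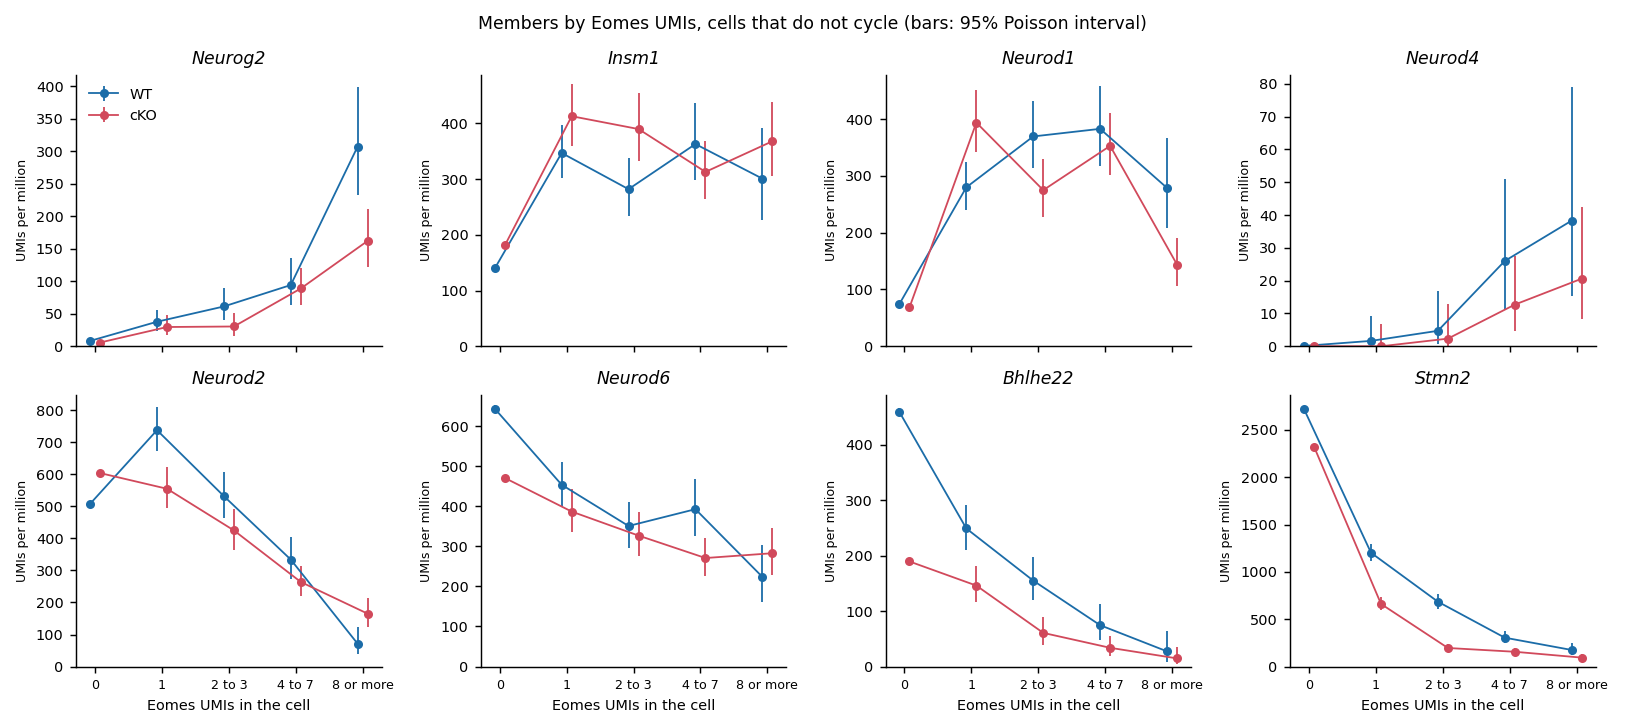
Level of the members and of the neuronal gene Stmn2 (y axis, CPM) by the number of Eomes UMIs in the cell (x axis), WT in blue and cKO in red, with 95% Poisson intervals. Neurog2 was at 307 CPM in WT and 162 CPM in cKO with 8 or more Eomes UMIs, and Bhlhe22 at 459 and 189.5 CPM with 0. Cells were not thinned and cKO cells were deeper in each bin.

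Within single thinned cells of the 6 stages, co-detection differed between pairs of members. Of cells with a Neurog2 UMI, 23.1% in WT (25 of 108) and 29.9% in cKO (20 of 67) had an Eomes UMI, against 5.23% and 4.29% of cells without Neurog2. Of cells with an Eomes UMI, 33.7% and 41.7% had a Neurod1 UMI, against 12.4% and 11.7% of cells without Eomes. Bhlhe22 went the other way, in 16.0% and 10.8% of Eomes cells and in 52.3% and 30.0% of the others. Eomes set or capped the stages pooled here, and most cells without it were neurons, which entered by neuronal markers. The contrasts of Eomes with Neurog2, Neurod1 and Bhlhe22 therefore partly restate the gates and the mix of stages. They cannot tell whether the genes go together within a stage. Neurod6 was in 68.6% and 56.3% of Neurod2 cells and in 47.9% and 40.1% of cells without Neurod2. Neurod2 was in 62.2% and 63.7% of Neurod1 cells and in 60.8% and 64.8% of the others. At least 3 members in 1 thinned cell were found in 56.8% of WT and 43.8% of cKO newborn neurons, in 40.6% and 24.2% of later neurons, and in 55.1% and 44.5% of Eomes-positive cells. In cycling Eomes-positive cells the order was the other way, with 32.4% in WT (11 of 34) and 55.6% in cKO (15 of 27). Eomes was among the members counted in these shares. It set the Eomes stages and was capped in the others, so the gates fixed part of each share and stages cannot be compared by it.

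Of 37 further genes of the pathway, 19 had the same highest stage in both libraries and 2 were at or under the floor of 3 UMIs in both. Hes1, Hes5, Rnd2, Sstr2 and Tbr1 are in these counts although they helped to set the stages. Their highest stages and ratios are therefore partly fixed by the gates. In Eomes-positive cells 31 were tested, of which 7 were past 2-fold lower in cKO (Id3, Id4, Nhlh1, Myt1l, Prdm8, Zbtb18 and Elavl4) and 1 higher, the Notch ligand Dll1 at 7.64 and 20.1 CPM. Elavl4, a neuronal RNA-binding protein, had the largest difference of the 7, at 466 and 115 CPM (-2.02, from -2.30 to -1.74). Zbtb18, a zinc finger repressor of neurons, was at 519 and 254 CPM and Myt1l, a zinc finger factor that represses non-neuronal genes, at 173 and 61.3 CPM. In newborn neurons 4 of 32 were lower (Hes1, Dll3, Id4 and Elavl4) and 1 higher, St18 at 0.946 and 4.84 CPM. Elavl4 was at 186 and 54.0 CPM there, and Zbtb18 at 831 and 821 CPM. In later neurons 2 of 31 were lower and 2 higher. In radial glia 4 of 26 were lower and 1 higher, in cycling Eomes-low cells 1 of 28 was lower, and in cycling Eomes-positive cells 4 of 24 were lower. These shares stand against the same backgrounds as the members, for example 12.9% lower and 7.10% higher in Eomes-positive cells.

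Some genes had a pattern like a member's over the 24 points. Among 12374 genes, those nearest to Neurog2 were Eomes (r = 0.911), which set stages, Mfap4 (0.895) and Pam (0.879). Eomes was nearest to Tac2 (0.969) and Serping1 (0.920). Insm1 was nearest to Nfyb (0.955), Txnrd1 (0.954) and Rcor2 (0.933), the last a corepressor gene. Neurod1 was nearest to Sstr2 (0.948), which helped to set the newborn stage, Igfbpl1 (0.909) and Tfap2d (0.903). Beyond each other, Neurod2 was nearest to Zbtb18 (0.930) and Cldn3 (0.927), and Neurod6 to Mpped1 (0.948) and Frmd4a (0.926). Bhlhe22 was nearest to Cntn2 (0.923), which also set a stage, Armc6 (0.915) and 1110008P14Rik (0.909). Neurog1 and Neurod4 had too few UMIs to be compared.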

How the data were processed

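Single-cell RNA sequencing (10x Genomics) of 2 libraries, grouped by the genotype in the labels, was analysed from the matrices of raw UMI counts per gene and barcode that the authors deposited. Per the file headers they were written by software 3.0.1, while the submitters' processing notes name Cell Ranger 2, STAR, Seurat and the build mm9. Cell calling and strand are not given in the sources used here. The study describes its control as floxed without Cre where the label says WT. Tables repeating the counts or giving totals per barcode were not used.

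Cells with at least 500 genes and at most 10% mitochondrial UMIs were kept (6766 WT, 6080 cKO). Scrublet (scanpy 1.11.5) marked 165 and 0 cells at its automatic threshold, so the highest 5% of doublet scores in each library were left out instead (338 and 304), a choice made after seeing the data. This removed 5.44% of WT and 3.31% of cKO Eomes-positive cells, and 7.89% and 12.9% of cycling Eomes-positive cells. UMIs were summed by stage and library and given as CPM of the stage total, with exact Poisson, conditional binomial and Clopper-Pearson 95% intervals (scipy 1.17.1). With 1 library per genotype no test was run. Shares used cells thinned to 2000 UMIs.

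The named genes were the 9 members, the 3 genes most like each, and the pathway genes past 2-fold in Eomes-positive cells or newborn neurons. The members and lists were chosen with earlier results of these data known. Gene positions are from GENCODE M21 (GRCm38), in which 27645 of 27998 identifiers were found, and promoter windows from RefSeq, which held 7 of the 9 members. The windows were cut to the bases before the gene start. The scripts were tested on simulated data.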

Additional observations from a re-analysis of the deposited data

Results flagged for a closer look

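4 steps between cell classes had opposite signs in the libraries, with both intervals clear of 0. The difference between the libraries was not tested for any of them. From GABAergic lineage cells to newborn neurons, the log2 change of Insm1 was -0.22 (-0.30 to -0.14) in WT and 0.20 (0.12 to 0.28) in cKO. By mitochondrial share the WT step turned. In the lowest bin the 2 classes held 1346 Insm1 UMIs of 2726671 and 355 of 1609781, a step down. They held 1187 of 6221839 and 1913 of 8479980 in the middle bin, and 152 of 1396626 and 323 of 1538071 in the highest, steps up. In cKO the middle bin was nearly level, at 1373 of 4838206 and 1880 of 6841315. From newborn to later neurons, Neurod6 stood at 0.09 (0.04 to 0.13) in WT and -0.14 (-0.19 to -0.09) in cKO. In the highest bin WT held 1258 Neurod6 UMIs of 1538071 in newborn and 1623 of 2070392 in later neurons, a small step down. The step was up in the lower WT bins and down in each cKO bin. For the same step over all bins, Bhlhe22 stood at 0.20 (0.15 to 0.25) in WT and -0.21 (-0.28 to -0.13) in cKO. In cells with up to 5% mitochondrial UMIs the Bhlhe22 levels went the other way in both libraries, at 322 CPM in newborn and 306 CPM in later neurons of WT and at 246 and 279 CPM in cKO, with intervals that overlapped in each library. From radial glia to cycling Eomes-low cells, Bhlhe22 stood at -1.34 (-1.85 to -0.83) in WT and 1.98 (0.91 to 3.25) in cKO, on 57 and 8 radial glia UMIs, of which 31 of the 57 lay in 1 cell. In cycling Eomes-low cells 34 of 80 WT and 24 of 63 cKO UMIs likewise lay in 1 cell. With up to 5% mitochondrial UMIs, the 2 stages held only 5 and 18 UMIs in WT and 2 and 3 in cKO, so the step was not read there.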

How the results depend on the processing

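No paired analysis was possible because each genotype had 1 library, and for the same reason no replicate was left out. Of 433 log2 ratios under alternatives, 363 moved by less than their counting interval, 65 moved by more and 5 that had been past 2-fold changed sign. Counting ratios short of 2-fold as well, 44 of the 433 had the other sign. The log2 ratios here have 0.5 UMIs added, except those by bins of mitochondrial share, which have none added. The alternatives with the automatic doublet threshold, without the top cell and by mitochondrial share were chosen after seeing the data.

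With at least 1000 genes and at most 5% mitochondrial UMIs, 1009 of 5763 cells were left in the stages, and 13 of 28 pairs of member and stage were lower in cKO, against 26 of 37, Eomes left out. Neurod6 was then at 1.32 in radial glia and -2.36 in cycling Eomes-low cells, Neurod1 at 0.34 in later neurons, and Bhlhe22 at -0.43 in newborn and -0.09 in later neurons. Under the same filter on mitochondrial share alone, Neurod1 in later neurons was at 0.39 and Bhlhe22 at -0.39 in newborn and -0.13 in later neurons, while Bhlhe22 reached -1.40 in newborn neurons of the highest bin and -1.71 in later neurons of the middle bin. Stages set after thinning held 3536 cells and 5 pairs past 2-fold, against 9. Neurod6 was then at -0.79 in radial glia and 0.09 in cycling Eomes-low cells, Neurod1 at -0.48 in later neurons, and Bhlhe22 at -0.43 in Eomes-positive cells, -0.83 in newborn and -1.44 in later neurons.

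In radial glia, Neurod6 was at -1.38 and Bhlhe22 at -2.25 with no filter on cells, and Bhlhe22 at -2.09 with no doublet removal. With the automatic doublet threshold Neurod2 was at 0.11, Neurod6 at -0.92 and Bhlhe22 at -1.80. By the mean of each cell's CPM, Neurod6 was at -0.93 and Bhlhe22 at -1.87 there, and Neurod1 at -0.62 and Bhlhe22 at -1.38 in later neurons. Centred on the median gene, Bhlhe22 was at -0.92 in newborn and -1.36 in later neurons. The causes were not tested. Neurog2 in radial glia stayed past 2-fold lower under the 11 alternatives that left it at least 20 UMIs, between -3.53 and -2.66. Neurod6 in the same stage had 12 alternatives, so Neurog2 was not tested under all of them.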

Other observations

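Cajal-Retzius cells, early-born neurons of the marginal zone that had at least 3 of 6 marker genes, held Bhlhe22 apart from the rest of the cascade. Of 58 WT and 60 cKO cells, 91.4% and 86.7% had a Bhlhe22 UMI before thinning, at medians of 15104 and 19422 UMIs per cell. After thinning to 2000 UMIs the shares were 43.1% (25 of 58) and 30.5% (18 of 59), against 4.80% and 0.877% of thinned vascular and immune cells. Pooled levels were 299 CPM (264 to 337) and 221 CPM (194 to 249.6). Neurod2 was at 28.9 and 13.2 CPM in these cells, Neurod6 at 41.1 and 22.0 CPM, Neurod1 at 3.33 and 1.76 CPM and Neurog2 at 2.22 and 0 CPM. In oligodendrocyte precursors Insm1 was at 63.8 CPM in WT and 109 CPM in cKO.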
